A study of Arabidopsis thaliana with 4 samples.

Results

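Genes of seed maturation were followed in seedlings of Arabidopsis thaliana. The 54 genes were taken by locus from a list of late embryogenesis abundant (LEA) proteins, storage proteins, oil body proteins, seed membrane proteins, metallothioneins, enzymes and seed regulators, whatever their level, and all of them had a row among the 33664 features. RNA came from whole seedlings of accession Col-0, 9 days old, kept on MS medium at 23 ± 2 °C in a light period of 16 h and a dark period of 8 h, and poly(A) RNA was sequenced. Each genotype had 2 libraries, wild type and trm4b-4, a mutant of TRM4B (AT2G22400), whose product methylates cytosine in RNA; no treatment or second allele is named, and since no label names separate cultures for libraries of 1 genotype, p-values reflect library-to-library spread, which may be technical. The targeted gene was higher, not lower, in the mutant's libraries, at 29.7 and 28.9 FPKM in wild type and 86.3 and 87.1 FPKM in those labelled trm4b-4 (log2 change 1.53, limma adjusted p = 2.4e-08), so every direction below follows the label. Leaf and root markers were present in every library: 5 leaf genes summed to between 25800 and 29900 FPKM and 6 root genes to between 96.1 and 101 FPKM.

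During seed maturation the embryo fills with storage proteins and with oil held in droplets coated by oleosins and caleosins, and then prepares to dry out. LEA proteins are hydrophilic proteins that protect membranes and other proteins during drying. The programme is switched on by the transcription factors LEC1, LEC2, FUS3 and ABI3 and, with abscisic acid, by ABI5, which binds ACGT-containing elements, while the B3 domains of ABI3, FUS3 and LEC2 bind the RY element. After germination the programme is shut down, partly by the B3 proteins of the VAL group and by Polycomb complexes.

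Levels were given per gene length and library total (FPKM). The values were whole multiples of a step, from which whole fragments were recovered, and the ratio of the fragments of the genotypes, per library total, is given below as the fragment ratio with an exact 95% interval that covers counting error only. Tests were made with limma on log2(FPKM + 1), a scale that understates the changes of low genes.

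Most seed maturation genes were low in wild type and higher in the libraries labelled trm4b-4. The members summed to 52.3 and 53.4 FPKM in the wild-type libraries and 198 and 204 FPKM in those labelled trm4b-4. RAB18, a dehydrin gene, gave 38.2% and 39.6% of the members' fragments in wild type and 25.5% and 25.1% in the libraries labelled trm4b-4; the other members together had 814 and 731 fragments in wild type and 3124 and 3360 in the mutant's libraries. Library totals lay between 21931590 and 26390263 fragments. In the test without a filter on level, which covered the 45 members above 0 in any library, 31 were called higher and 1 lower at an adjusted p under 0.05, where 11.9% of all 24892 features above 0 were called higher and 9.85% lower. In 38 of the 45, both libraries labelled trm4b-4 lay above both wild-type libraries, against 34.7% of the features above 0. Among the 36 members with at least 10 fragments over the 4 libraries, 32 had a fragment ratio of 2 or more, against 2.6% of the 22017 features with as many fragments. The median ratio of the 36 was 5.98, against 1.02 over all such features. CRU3, BGLU19, ATECP31, OLEO1, ABI3, EM1, CRA1 and HVA22B had under 10 wild-type fragments and reached 10 only with the mutant's libraries. For them the cut favoured a rise, so their ratios add no support. The members were chosen with earlier results of these libraries known, so these shares describe the list and do not test it. In whole seedlings, more RNA per cell and more cells of a type cannot be told apart.

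**Figure D1:**
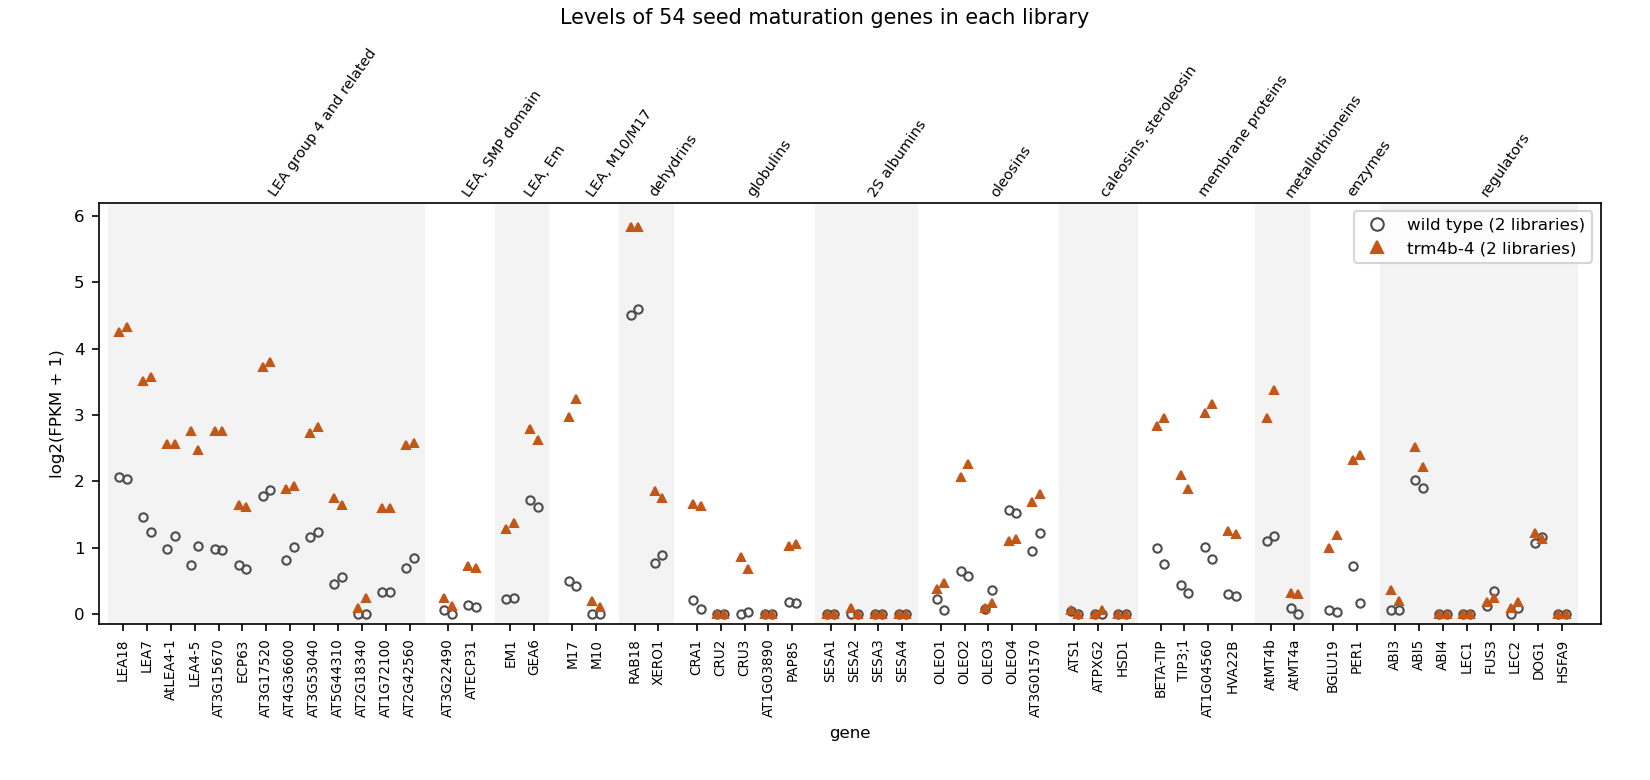
Level of each of the 54 genes in each of the 4 libraries, as log2(FPKM + 1), with genes grouped by the role of their product (open circles, 2 wild-type libraries; triangles, 2 libraries labelled trm4b-4). Most LEA genes stand apart between genotypes, the 2S albumins and caleosins lie at or near 0 in every library, and OLEO4 is the gene whose triangles lie below its circles.

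Only 30 members reached 1 FPKM in at least 2 libraries, the filter of the main test. Of these, 28 were called higher and 1 lower, beside 19.2% and 15.1% of the 19027 features tested. For 14 of the 30, both wild-type libraries were under 1 FPKM, so only their level in the mutant's libraries let them pass, and their direction was set by the filter. A further 6, all called higher, had 1 wild-type library at 1 FPKM or more and needed a mutant library to pass. The 10 members that passed on wild type alone gave 8 higher, 1 lower and 1 not called. Unless another fit is named, values below are from the main test for members that passed on wild type alone and for tested genes of other lists. For all other members they are from the test without a filter.

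The LEA proteins and dehydrins made the largest group, and 18 of their 21 genes were called higher without a filter and none lower. Their 18 members with 10 or more fragments had fragment ratios from 2.49 to 20.2, with a median of 5.61. Of these, EM1 and ATECP31 reached 10 fragments only with the mutant's libraries. Of the group 4 and related LEA genes, 12 of 13 were called higher, all 12 with ratios between 3.11 and 7.96. LEA18 (AT2G35300), the highest of them in wild type, was at 3.19 and 3.11 FPKM in the wild-type libraries and 18 and 19.1 FPKM in those labelled trm4b-4 (log2 change 2.24, SE 0.0721, limma adjusted p = 2.31e-07). Its fragment ratio was 5.89 (interval 4.61 to 7.62). LEA7 (AT1G52690), of the same set of group 4 and related genes, was at 1.77 and 1.36 FPKM in the wild-type libraries and 10.4 and 10.9 FPKM in those labelled trm4b-4. Its fragment ratio was 6.77 (interval 5.21 to 8.93) (log2 change 2.19, SE 0.104, limma adjusted p = 2.24e-06). For both genes every library labelled trm4b-4 was at least several times above every wild-type library.

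The remaining group 4 and related genes kept the same order between genotypes. AtLEA4-1 (AT1G32560) was at 0.98 and 1.27 against 4.91 and 4.92 FPKM (wild type first, here and below) and LEA4-5 (AT5G06760) at 0.664 and 1.03 against 5.75 and 4.56 FPKM. These small group 4 proteins are known for accumulation in drying tissue. AT3G17520 was at 2.42 and 2.64 against 12.2 and 12.9 FPKM, AT3G53040 at 1.24 and 1.35 against 5.63 and 6.06 FPKM and AT3G15670 at 0.966 and 0.948 against 5.77 and 5.74 FPKM. AT2G42560 was at 0.61 and 0.793 against 4.84 and 4.98 FPKM, a fragment ratio of 7.06 (interval 5.53 to 9.11). The widest ratio of the group was that of AT1G72100, at 0.253 and 0.255 against 2.02 and 2.03 FPKM, 7.96 (interval 5.03 to 13.2). In none of these genes did the libraries of the genotypes overlap. Smaller ratios belonged to ECP63 (AT2G36640), an embryonic cell protein, at 0.666 and 0.607 against 2.12 and 2.07 FPKM (3.28), and AT4G36600, at 0.762 and 1.02 against 2.71 and 2.8 FPKM (3.11). AT5G44310 was at 0.369 and 0.477 against 2.37 and 2.11 FPKM (ratio 5.32). Without a filter, the limma adjusted p of these 10 genes ran from 0.000249 for AT3G17520 to 0.0035 for AT4G36600. AT2G18340, the member of the group without a call, had no fragment in wild type and 2 and 6 in the libraries labelled trm4b-4, and the exact interval of its ratio began at 1.9. Its adjusted p was 0.154 without a filter and 0.0087 with voom on recovered fragments.

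M17 (AT2G41260) had the widest ratio of the LEA genes. It was at 0.418 and 0.338 FPKM in the wild-type libraries and 6.87 and 8.49 FPKM in those labelled trm4b-4 and had 11 and 8 fragments in the wild-type libraries and 150 and 195 in those labelled trm4b-4. The fragment ratio was 20.2 (interval 12.8 to 34) (log2 change 2.65, SE 0.124, limma adjusted p = 0.000335, without a filter). Its neighbour M10 (AT2G41280), which encodes a related LEA protein, was near the limit of detection, with no fragment in wild type and 2 and 1 in the libraries labelled trm4b-4.

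The upstream windows of LEA18, LEA7 and M17 are shown because these genes rose most among the LEA genes on the log2 scale while their windows differ. Each is the 250 bases before the annotated transcript start, read on the gene's strand from the RefSeq annotation of TAIR10.1 (chr2:14863413-14863662, minus strand; chr1:19619474-19619723, plus strand; chr2:17206202-17206451, plus strand, in that order). Capitals mark ACGTG, the core of the abscisic acid response element, and CATGCA, the core of the RY element, on either strand.
LEA18: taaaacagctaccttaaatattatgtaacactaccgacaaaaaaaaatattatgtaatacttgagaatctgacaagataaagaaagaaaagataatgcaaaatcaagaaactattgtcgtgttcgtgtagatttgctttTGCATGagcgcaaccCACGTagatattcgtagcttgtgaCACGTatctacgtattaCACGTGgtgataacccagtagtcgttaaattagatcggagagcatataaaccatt
LEA7: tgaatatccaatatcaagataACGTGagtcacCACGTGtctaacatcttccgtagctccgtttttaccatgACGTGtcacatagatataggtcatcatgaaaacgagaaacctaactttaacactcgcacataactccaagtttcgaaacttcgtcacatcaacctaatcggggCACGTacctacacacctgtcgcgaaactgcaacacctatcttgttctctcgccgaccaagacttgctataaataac
M17: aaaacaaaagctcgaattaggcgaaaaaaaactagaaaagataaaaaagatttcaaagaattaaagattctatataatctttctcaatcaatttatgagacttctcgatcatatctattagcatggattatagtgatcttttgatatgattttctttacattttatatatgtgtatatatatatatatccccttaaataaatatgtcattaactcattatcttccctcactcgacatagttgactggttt
LEA18 had 4 matches to ACGTG and 1 to CATGCA, LEA7 had 5 to ACGTG, and M17 had none to either. A palindrome such as CACGTG counts on both strands and so gives 2 matches.

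The Em proteins, group 1 LEA proteins of dry seeds, and the dehydrins rose as well. EM1 (AT3G51810) was at 0.169 and 0.187 against 1.42 and 1.59 FPKM and its relative GEA6 (AT2G40170, EM6) at 2.3 and 2.07 against 5.91 and 5.19 FPKM, with fragment ratios of 8.5 (interval 4.05 to 20.6) and 2.53 (interval 1.89 to 3.42). RAB18 (AT5G66400), a dehydrin also induced by abscisic acid in vegetative tissue, was the highest member of all, 7.14 times above the next gene in wild type. It was at 21.9 and 23.1 FPKM in the wild-type libraries and 56 and 56 FPKM in those labelled trm4b-4 (log2 change 1.28, SE 0.0415, limma adjusted p = 2.38e-07). Its fragment ratio of 2.49 (interval 2.31 to 2.69) was the lowest of the 18 LEA and dehydrin genes with 10 or more fragments. The intervals of RAB18 and LEA18 did not overlap, though they cover counting error only. XERO1 (AT3G50980), another dehydrin, was at 0.71 and 0.854 against 2.64 and 2.37 FPKM (ratio 3.21, limma adjusted p = 0.00284 without a filter). In the seed maturation protein pair, ATECP31 (AT3G22500) was called higher without a filter, at 0.103 and 0.0759 against 0.658 and 0.626 FPKM (log2 change 0.59, SE 0.0576, limma adjusted p = 0.00283), and AT3G22490 had 1 and 0 against 4 and 2 fragments (adjusted p = 0.158).

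**Figure D2:**
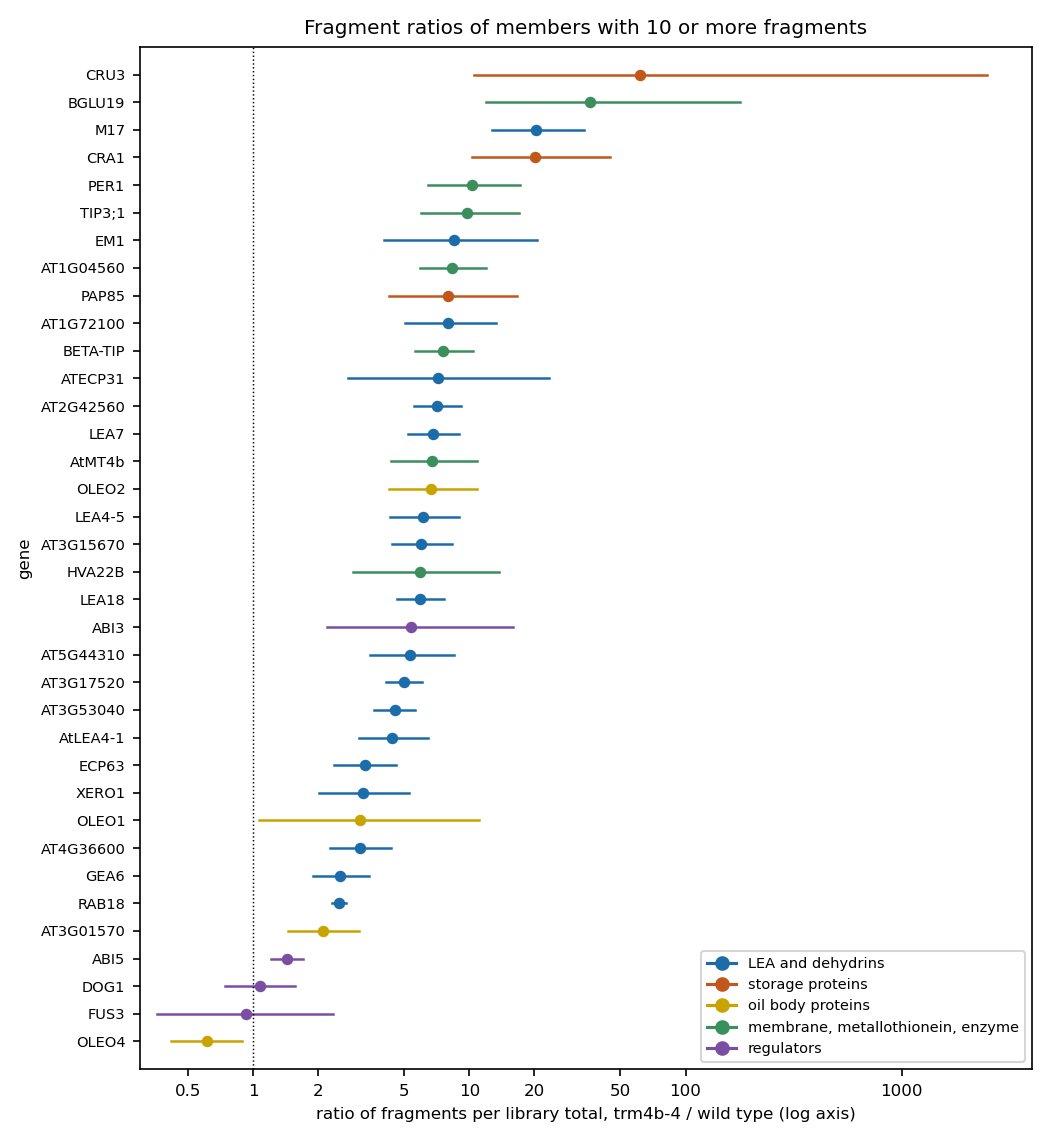
Fragment ratio of the libraries labelled trm4b-4 to wild type, per library total, for the 36 genes with 10 or more fragments over the 4 libraries (points; bars, exact 95% intervals for counting error; logarithmic axis; colour, role of the product). The intervals of 33 genes lie above 1, that of OLEO4 lies below 1, and those of DOG1 and FUS3 hold 1. Genes with under 10 wild-type fragments are shown only because of their fragments in the mutant's libraries.

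Among the storage proteins, calls were found for globulin genes. Of 5 globulin genes, 3 were called higher without a filter, and all 4 albumin genes were at or near 0. CRA1 (AT5G44120), a 12S cruciferin, was at 0.157 and 0.0497 FPKM in the wild-type libraries and 2.16 and 2.1 FPKM in those labelled trm4b-4, with 7 and 2 fragments in the wild-type libraries and 80 and 82 in those labelled trm4b-4. The fragment ratio was 20.1 (interval 10.3 to 44.7) (log2 change 1.51, SE 0.0827, limma adjusted p = 0.000532, without a filter). CRU3 (AT4G28520), another cruciferin, had 0 and 1 fragments in the wild-type libraries and 31 and 24 in those labelled trm4b-4, a ratio of 61.3 (interval 10.6 to 2466) that rests on a single wild-type fragment (log2 change 0.75, SE 0.0802, limma adjusted p = 0.00372, without a filter). PAP85 (AT3G22640), a vicilin-like globulin, was at 0.137 and 0.127 against 1.05 and 1.07 FPKM (log2 change 0.86, SE 0.0617, limma adjusted p = 0.00115, without a filter). Both wild-type values of each of the 3 lay below 1 FPKM, and the genotypes did not overlap. The cruciferin genes CRU2 (AT1G03880) and AT1G03890 had no fragment in any library, which allows up to 3 in each genotype. SESA1 (AT4G27140), SESA3 (AT4G27160) and SESA4 (AT4G27170) had none either, and SESA2 (AT4G27150) had 1, in a library labelled trm4b-4. These albumin genes lie in a row on chromosome 4 between 13607329 and 13614283 (TAIR10.1). None of the 9 storage genes had a transcript at least 95% identical over 100 bases elsewhere in the annotation.

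The windows of CRA1 and SESA3 are shown as examples of a storage gene that rose and one without a fragment (chr5:17758337-17758586, minus strand; chr4:13611546-13611795, plus strand; TAIR10.1), with the same capitals.
CRA1: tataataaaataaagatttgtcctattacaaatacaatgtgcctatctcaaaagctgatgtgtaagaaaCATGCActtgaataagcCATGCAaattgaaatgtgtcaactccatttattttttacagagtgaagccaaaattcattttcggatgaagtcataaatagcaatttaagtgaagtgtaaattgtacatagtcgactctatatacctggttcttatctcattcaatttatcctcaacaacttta
SESA3: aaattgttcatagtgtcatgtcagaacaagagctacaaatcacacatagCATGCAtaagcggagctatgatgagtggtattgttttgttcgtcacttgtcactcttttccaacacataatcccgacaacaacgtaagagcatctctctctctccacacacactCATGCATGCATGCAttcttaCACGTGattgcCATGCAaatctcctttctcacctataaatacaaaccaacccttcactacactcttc
The CRA1 window had 2 matches to CATGCA and none to ACGTG, and that of SESA3 had 7 and 2.

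Oil body genes gave calls both ways, and the lower call was lost whenever a library was left out. Of the 5 oleosin genes, whose products coat oil droplets, 2 were called higher and 1 lower without a filter. Over all features above 0, 11.9% were called higher and 9.85% lower. So few oleosin genes cannot be told from those shares. OLEO2 (AT5G40420) was at 0.565 and 0.482 FPKM in the wild-type libraries and 3.19 and 3.78 FPKM in those labelled trm4b-4. Its fragment ratio was 6.64 (interval 4.25 to 10.8) (log2 change 1.55, SE 0.104, limma adjusted p = 0.000951, without a filter). AT3G01570, an oleosin gene, was at 0.931 and 1.34 against 2.24 and 2.5 FPKM (ratio 2.11, limma adjusted p = 0.0214 without a filter). Its groups did not overlap, and without a filter its call was lost when wild type replicate 1 was left out (adjusted p = 0.0571). OLEO4 (AT3G27660) was the member that was lower, at 1.95 and 1.88 FPKM in the wild-type libraries and 1.15 and 1.19 FPKM in those labelled trm4b-4, a ratio of 0.611 (interval 0.417 to 0.885) (log2 change -0.43, SE 0.113, limma adjusted p = 0.021). Leaving out each library in turn ended the call every time, with log2 changes from -0.44 to -0.41 and adjusted p from 0.0594 to 0.104. Without a filter, voom on recovered fragments did not call it either (adjusted p = 0.0816). OLEO1 (AT4G25140), the most abundant oleosin gene of seeds, had 4 and 1 fragments in the wild-type libraries and 6 and 8 in those labelled trm4b-4 (ratio 3.12 (interval 1.06 to 11.1), adjusted p = 0.0617 without a filter). OLEO3 (AT5G51210) had 1 and 5 fragments in the wild-type libraries and 1 and 2 in those labelled trm4b-4 (adjusted p = 0.592). The caleosin genes ATS1 (AT4G26740) and ATPXG2 (AT5G55240) had 2 and 1 fragments over the 4 libraries. The steroleosin gene HSD1 (AT5G50600) was listed at 0, and its transcript is 100% identical over 1549 bases to that of AT5G50700, so its level depends on how reads with several matches were counted, which is not given in the sources used here.

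The window of OLEO4 is shown as that of the gene that was lower (chr3:10242994-10243243, plus strand; TAIR10.1).
OLEO4: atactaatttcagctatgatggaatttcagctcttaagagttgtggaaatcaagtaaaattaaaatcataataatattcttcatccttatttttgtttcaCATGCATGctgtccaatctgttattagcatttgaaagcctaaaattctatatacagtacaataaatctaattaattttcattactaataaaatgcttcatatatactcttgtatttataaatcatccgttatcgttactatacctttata
It had 2 matches to CATGCA, in an overlapping palindrome, and none to ACGTG.

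All 8 genes for seed membrane proteins, metallothioneins and enzymes were called higher without a filter. BETA-TIP (AT1G17810) and TIP3;1 (AT1G73190), the water channels of the storage vacuole membrane, were at 1 and 0.681 against 6.1 and 6.76 FPKM and at 0.354 and 0.25 against 3.29 and 2.68 FPKM, with fragment ratios of 7.58 (interval 5.62 to 10.4) and 9.79 (interval 5.99 to 16.9). AT1G04560, for an AWPM-19-like membrane protein, was at 1.02 and 0.787 against 7.15 and 7.96 FPKM (ratio 8.32), and HVA22B (AT5G62490), for a homologue of a barley protein induced by abscisic acid, at 0.239 and 0.212 against 1.38 and 1.31 FPKM (ratio 5.95). Without a filter, the limma adjusted p of these 4 ran from 0.000441 for AT1G04560 to 0.00118 for HVA22B. AtMT4b (AT2G23240), a seed metallothionein, which binds metal ions, was at 1.15 and 1.27 against 6.78 and 9.39 FPKM (log2 change 2.03, SE 0.141, limma adjusted p = 1.96e-05). Its relative AtMT4a (AT2G42000) had 1 and 0 against 3 and 3 fragments and a weak call without a filter (adjusted p = 0.0338), which did not hold when single libraries were left out (0.102 to 0.222) or with voom (0.0634). The call of AtMT4a was also lost with the replicate number as a block (0.0506). PER1 (AT1G48130), a 1-cysteine peroxiredoxin of seeds that removes peroxides, was at 0.653 and 0.128 FPKM in the wild-type libraries and 4.02 and 4.26 FPKM in those labelled trm4b-4. Its ratio was 10.3 (interval 6.45 to 17.2) (log2 change 1.91, SE 0.193, limma adjusted p = 0.00316, without a filter). Its wild-type libraries differed from each other, with 17 and 3 fragments, and lay below those labelled trm4b-4, with 87 and 97. BGLU19 (AT3G21370), a beta-glucosidase, had 2 and 1 fragments in the wild-type libraries and 41 and 56 in those labelled trm4b-4, a ratio of 36 (interval 12 to 178) (log2 change 1.05, SE 0.0873, limma adjusted p = 0.00179, without a filter).

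Of the 8 regulators, 3 had no fragment in any library and were not tested. None of the others was called without a filter, where 11.9% of all features were called higher and 9.85% lower. So few genes cannot be told from that share. The 4 with 10 or more fragments had ratios from 0.929 to 5.39, with a median of 1.26. The highest ratio was that of ABI3, which reached 10 fragments only with the mutant's libraries. ABI5 (AT2G36270), a bZIP factor of the abscisic acid response, was at 3.04 and 2.74 FPKM in the wild-type libraries and 4.75 and 3.63 FPKM in those labelled trm4b-4, a fragment ratio of 1.44 (interval 1.22 to 1.71). It was called higher in the main test (log2 change 0.41, SE 0.124, limma adjusted p = 0.0352). Without wild type replicate 1 the log2 change was 0.46 and the adjusted p 0.0675. The call was also lost without wild type replicate 2 (0.35, adjusted p = 0.146) and without trm4b-4 replicate 1 (0.25, adjusted p = 0.192). Quantile normalization (adjusted p = 0.0522), a fit with no mean-variance trend (0.0717) and a fit with no filter (0.0965) ended it too. ABI3 (AT3G24650), a B3 factor that activates many LEA and storage genes, had 3 and 3 fragments in the wild-type libraries and 19 and 10 in those labelled trm4b-4, a ratio of 5.39 (interval 2.2 to 15.9). It was at 0.0381 and 0.0422 against 0.29 and 0.145 FPKM and was not called on log2(FPKM + 1) (adjusted p = 0.0931), but was called with voom on recovered fragments (log2 change 2.18, adjusted p = 0.0057). FUS3 (AT3G26790), also a B3 factor, had 3 and 9 fragments in the wild-type libraries and 4 and 6 in those labelled trm4b-4 (adjusted p = 0.919), and its groups overlapped. LEC2 (AT1G28300) had 0 and 2 against 2 and 4 fragments (adjusted p = 0.35). DOG1 (AT5G45830), a regulator of seed dormancy, was at 1.11 and 1.23 against 1.33 and 1.18 FPKM, with a ratio of 1.08 (interval 0.744 to 1.56) (adjusted p = 0.743). The interval of DOG1 lay below that of LEA18, but both cover counting error only and not the spread between libraries. ABI4 (AT2G40220), LEC1 (AT1G21970) and the seed heat shock factor gene HSFA9 (AT5G54070) had no fragment in any library.

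The upstream windows held the motifs in different shares by role. ACGTG was present in the windows of 19 of the 21 LEA and dehydrin genes (90.5%) and in all 13 of group 4 and related LEA genes, with 3 to 7 matches each. Over the 27443 protein-coding nuclear genes the share was 22.9%. CATGCA was present in 5 of the 21 LEA and dehydrin windows (23.8%), in 8 of 9 storage windows (88.9%) and in all 8 oil body windows, against 8.43% of all genes. Of the 31 members called higher without a filter 24 had ACGTG (77.4%) and 13 had CATGCA (41.9%), and of the other 23 members 12 (52.2%) and 13 (56.5%) had them. The 9 members without a fragment had ACGTG in 4 windows and CATGCA in 6. These matches were not tested and show only which letters the windows hold.

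**Figure D3:**
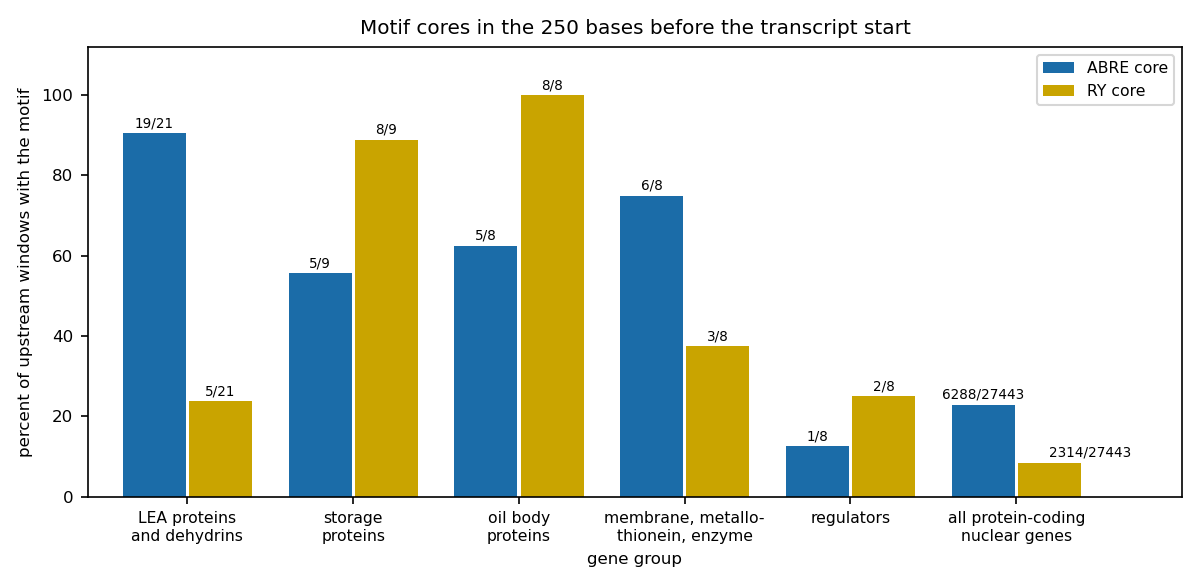
Percent of upstream windows (250 bases before the transcript start) with ACGTG (ABRE core) or CATGCA (RY core) on either strand, by role of the gene and over all 27443 protein-coding nuclear genes, with counts above the bars. ACGTG is most frequent in LEA and dehydrin windows and CATGCA in oil body and storage windows.

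Known repressors of the seed programme gave 1 call. Of 14 genes of the VAL, PICKLE, Polycomb and histone deacetylase groups and ASIL1, all tested, 1 was called higher, the Polycomb methyltransferase gene SWN (from 21.4 to 29.1 FPKM in means, log2 change 0.43, adjusted p = 0.000166), and none lower. Of all tested features, 19.2% were called higher and 15.1% lower, and 14 genes are too few to be told from those shares. The median log2 change of the 14 was 0.01, against 0.03 over all tested features. With voom and with a filter of 5 FPKM, 2 of the repressors were called higher. The VAL genes HSI2, HSL1 and VAL3 were at -0.05, -0.04 and -0.05 (adjusted p = 0.623, 0.586 and 0.753). The chromatin remodeller gene PKL was at 0.04 (adjusted p = 0.551).

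LEA and cold-regulated genes of vegetative tissue were mostly lower. Of 13 such genes, 10 fell and 1 rose, beside 15.1% called lower and 19.2% called higher of all tested features. Their median log2 change was -0.26. The dehydrin gene COR47 was at 487 and 487 against 268 and 262 FPKM (adjusted p = 3.26e-08) and COR15B, for a chloroplast protein of cold acclimation, at 299 and 312 against 127 and 131 FPKM (adjusted p = 2.78e-08). The gene that rose was RD29B, at 3.43 and 3.33 against 8.85 and 8.31 FPKM (log2 change 1.13, SE 0.082, limma adjusted p = 2.58e-05), and without trm4b-4 replicate 1 there were 3 called higher. COR15A, a homologue of COR15B, fell too (log2 change -0.90, adjusted p = 3.06e-07).

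Abscisic acid is the hormone that drives LEA expression. In the list for its signalling 6 of 15 tested genes were called higher and 2 lower (median log2 change 0.14), where 19.2% and 15.1% of all tested features were. AFP3, for an ABI5-binding protein, and ABF2, for a bZIP factor, were higher, at 10.2 and 10.4 against 14.4 and 14 FPKM and 21.5 and 22.6 against 26.6 and 27.6 FPKM (adjusted p = 0.000891 and 0.00242), and the kinase genes SNRK2.3 and SNRK2.2 lower, at 44.2 and 43.4 against 26.9 and 28.5 FPKM and 106 and 100 against 87.6 and 86.3 FPKM (adjusted p = 1.59e-05 and 0.000882). The number called higher was 2 without wild type replicate 2 or trm4b-4 replicate 1, 3 without trm4b-4 replicate 2, 4 without the mean-variance trend and 8 with voom. In the list for synthesis and breakdown 1 of 8 tested genes was called, CYP707A3, whose product inactivates abscisic acid, at 32.6 and 32 against 1.59 and 1.89 FPKM (adjusted p = 2.11e-08). In that list 1 gene was called higher without trm4b-4 replicate 2 and with quantile normalization, and 2 with voom. The synthesis gene NCED3 was at -0.08 (adjusted p = 0.576).

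Of 9 genes that use up seed oil, 3 were called higher and 2 lower, beside the 19.2% and 15.1% of all tested features. The glyoxylate cycle genes ICL and MLS were at 7.3 and 7.69 against 29.3 and 29 FPKM and 2.55 and 2.49 against 4.36 and 5.28 FPKM (adjusted p = 1.49e-07 and 0.00138), and the lipase gene SDP1 at 18.9 and 19.6 against 15.5 and 15.6 FPKM (adjusted p = 0.00308). ACX2, for an acyl-CoA oxidase, was lower too, at 39.7 and 39.8 against 35.6 and 33.2 FPKM (adjusted p = 0.00782). LACS7, for an enzyme that activates fatty acids in peroxisomes, was the other gene called higher (log2 change 0.18, adjusted p = 0.025). Without the mean-variance trend 1 gene was called lower.

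**Figure D4:**
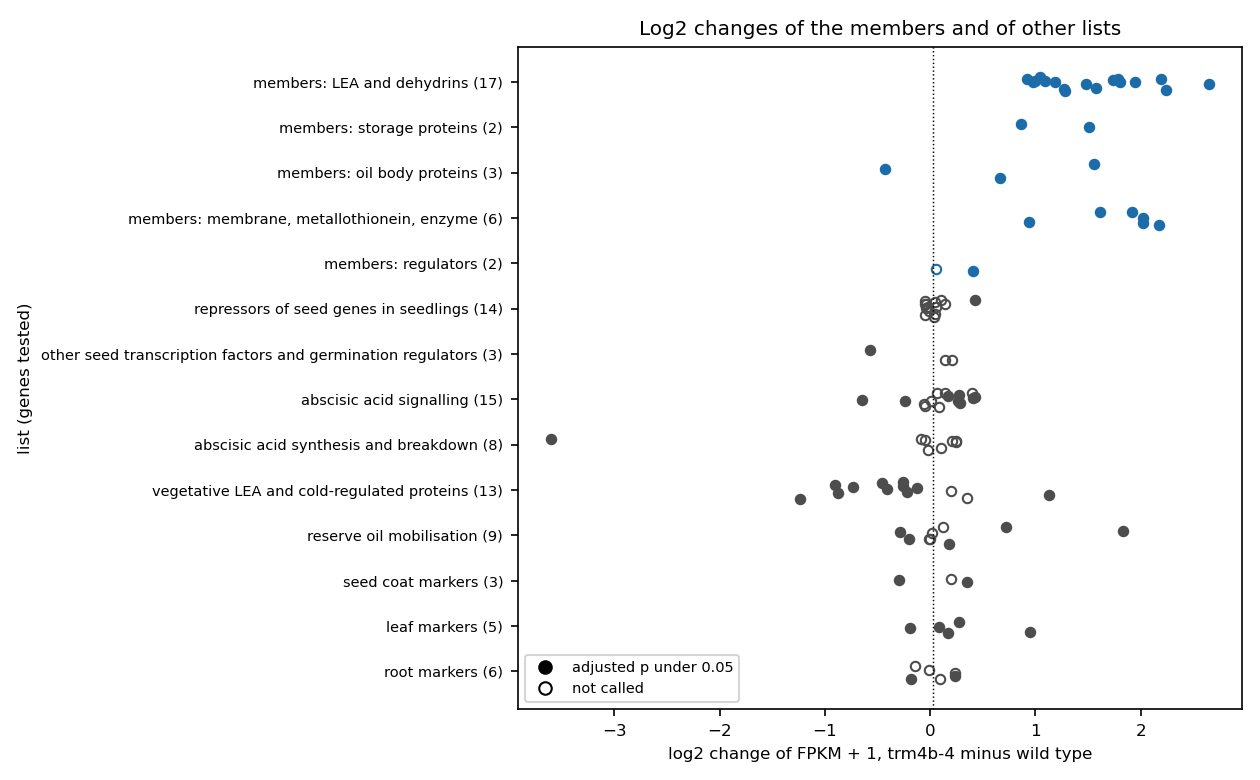
Log2 change of FPKM + 1 (libraries labelled trm4b-4 minus wild type) of each tested gene, for the members by role (blue) and for other lists (grey); filled points have an adjusted p under 0.05, and the dotted line is the median of all tested features, 0.03. The seed LEA genes lie right of the line and most vegetative LEA and cold-regulated genes left of it. Of the 30 members shown, 20 passed the filter of this test only with the mutant's libraries.

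The summed level of 9 seed coat markers was 73.5 and 74.3 FPKM in the wild-type libraries and 68.9 and 72.4 in those labelled trm4b-4. Most of this sum came from MUM2, from 50.3 to 40.7 FPKM in means, and MUM4, from 19.9 to 25.6 FPKM. Of the 9 genes 3 passed the filter, with MUM4 called higher (log2 change 0.35), MUM2 lower (-0.30) and TTG2 not called (0.20). Without a filter TT8, a regulator of tannin synthesis, was also higher, with 17 and 11 fragments in the wild-type libraries and 24 and 28 in those labelled trm4b-4 (adjusted p = 0.0327). Other tannin genes were low or showed no call: BAN, TT12 and TT2 had 3, 2 and 0 fragments in wild type and none in the libraries labelled trm4b-4, TT10 had 3 and 1 against 2 and 2, and AHA10 had 68 and 43 against 54 and 34. Among leaf markers 4 of 5 were called higher, with LHCB1.1 at 0.95, CAB1 at 0.27, LHCA1 at 0.17 and RBCS1A at 0.08 on the log2 scale, and PSBO1 was lower (-0.19). Among 6 root markers AT1G30870, a peroxidase gene, was higher (0.24) and the phosphate transporter gene PHT1;1 lower (-0.18). Of all tested features, 19.2% were called higher and 15.1% lower. The root and seed coat lists are too small to be told from those shares. With quantile normalization or without the mean-variance trend 2 leaf markers were called higher, and without wild type replicate 1 no root marker was called higher. Without trm4b-4 replicate 2, 2 root markers were called lower, as with median-of-ratios rescaling, the replicate block and the 5 FPKM filter. The part of tissue proportions in the members' differences was not tested.

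Neighbouring transcripts could share reads with 11 members that overlap a gene on the opposite strand, since the strand setting of the counting is not given. Of the 12 overlapping partners, 8 were tested and none was called. The partner of LEA7 had no fragment, that of RAB18 went from 14.3 to 12.7 FPKM in means (adjusted p = 0.155), and that of OLEO2 from 0.796 to 0.874 FPKM.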

How the data were processed

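RNA-seq libraries of whole seedlings were compared, 2 of wild type and 2 of trm4b-4 (grouped by title; the genotype field spells the mutant tm4b-4). The authors deposited 1 FPKM value per feature and library; the unit was read from the values. TopHat2 2.0.12, Cufflinks 2.1.1, HTSeq 0.6.1, Cuffdiff and the TAIR10 build are named, per the submitters' processing notes, and what each was used for is not given there. Library totals and whole fragments were recovered from the FPKM steps (tolerance 1e-04 fragments plus a relative 2e-06). The totals were 26390263 and 23782269 fragments for wild type and 21931590 and 23068982 for trm4b-4. The recovered length matched an annotated one for 13 of the 45 members above 0; for the others it was the largest that fitted within the longest annotated transcript, so their fragments are estimates. Nuclear sequence was read from TAIR10.1, and transcripts were compared with blastn 2.17.0.

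The main test was limma 3.58.1 in R 4.3.3 on log2(FPKM + 1), with a mean-variance trend, two-sided p-values adjusted by Benjamini-Hochberg and a threshold of 0.05, over 19027 features at 1 FPKM or more in at least 2 libraries. The same test without a filter covered 24892 features above 0. The fit was also run on simulated data, with changes set only in genes above the filter's level, so low members were not covered. Alternatives were other pseudocounts, filters and scalings, voom, a replicate block and leaving out each library. Fragment ratios carry exact conditional 95% intervals from scipy 1.17.1 for counting error only. No molecular identifiers are named, so fragments may include PCR copies.

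Values in every library are given for members called in either test and for regulators above 0, and from other lists up to 2 genes a direction with the smallest adjusted p, and single genes behind counts of 5 or fewer, are named; other listed genes named here were chosen after their values were seen. Members and lists were chosen with earlier results of these data known. All 54 members were matched by locus, and symbols are those of RefSeq or, for genes outside the members, a listed synonym.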

Additional observations from a re-analysis of the deposited data

How the results depend on the processing

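The 10 members that passed the main filter on wild type alone gave 137 values under the alternatives listed in the processing notes. Of these, 127 kept direction and side of the threshold, and the other 10 were of OLEO4 and ABI5, as given above. With another filter, without the mean-variance trend or with the replicate block, the log2 change equals that of the main test. In those fits only the call could change, not the direction. The 127 include values at the stricter filter of 5 FPKM, which only RAB18 passed on wild type alone, so for the other members those values say nothing on stability. The other 20 members that passed needed a mutant library, so their values are not counted here. Counts of all members called in the main test, given next, include these 20 and so do not measure stability for them. When a library was left out, the filter was still set on all libraries. With the stricter filter of 5 FPKM, 11 members were called higher and 0 lower, but 10 of the 11 passed only with the mutant's libraries, so this count says nothing on stability; RAB18 passed on wild type alone. Leaving out a library in turn gave 27 to 28 members higher and 0 lower, with 2536 to 2857 features higher and 2142 to 2515 lower in the whole table; the library left alone in its genotype is then assumed to vary like the others. With the replicate number as a block, 28 members were called higher and 1 lower, and without a filter 30 higher and 1 lower, so that AtMT4a was the call it changed. Deviations of same-numbered libraries correlated at -0.0434 over the 19027 features, so the numbers were not taken as pairs.

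Without a filter, other settings were added after seeing the data. voom called 33 members higher and 0 lower. On features above 0 in at least 2 of the 3 libraries left, the number lower was 0 whichever library was left out, and 29 to 30 of the 31 members higher remained called. With all 24892 features kept, between 772 and 866 had no residual variance and limma called 0 features, with 6284 to 6861 at an unadjusted p under 0.05. Signs changed for OLEO3 (0.051) and ATS1 (-0.02) without wild type replicate 2, and for FUS3 with voom (0.093) and without wild type replicate 2 (0.1) or trm4b-4 replicate 1 (0.017), none of them called. For members with under 10 fragments over the 4 libraries, counting error alone spans several fold.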

Other observations

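Other regulators of seeds and germination were mostly at low levels. SOM, for a zinc finger protein that inhibits germination in light-requiring seeds, had 10 and 9 fragments in the wild-type libraries and 35 and 32 in those labelled trm4b-4, a fragment ratio of 3.93 (interval 2.33 to 6.93), and was called higher without a filter (adjusted p = 0.00372). HAI3, for a phosphatase of abscisic acid signalling, had 1 and 5 fragments in the wild-type libraries and 10 and 13 in those labelled trm4b-4, a ratio of 4.27 (interval 1.69 to 12.8) (adjusted p = 0.0382 without a filter). EEL, for a bZIP factor related to ABI5, was lower, at 2.75 and 3.21 against 1.5 and 1.85 FPKM (log2 change -0.57, adjusted p = 0.00743 in the main test), and the call was lost without wild type replicate 2. The germination gene MFT had 33 and 28 fragments in the wild-type libraries and 24 and 34 in those labelled trm4b-4, and WRI1, a regulator of seed oil synthesis, was at 3.29 and 4.19 against 4.43 and 4.46 FPKM (adjusted p = 0.191). BBM, of the same list as SOM, had 12 and 9 fragments in the wild-type libraries and 3 and 5 in those labelled trm4b-4. Its fragment ratio was 0.425 (interval 0.163 to 0.998), and it was not called without a filter (limma adjusted p = 0.0982). The seed bZIP gene BZIP53 and the embryo gene MYB118 had no fragment in any library.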
